A study of Mus musculus with 18 samples.

Results

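Knee cartilage collected a week after the anterior cruciate ligament (ACL) had been ruptured was compared with cartilage of naïve mice, miRNA by miRNA, by seed family, by hairpin arm and by abundance rank. The comparison used the 3 day 7 injured libraries and the 6 naïve libraries, which are 9 of the 18 small RNA libraries of the study. All mature miRNAs that passed a filter on low counts were described, 428 of the 1412 in the table of counts. All mice were wild-type C57bl6, male and 12 weeks old at loading. Injured mice received a single 12 N load on the right knee under isoflurane, which ruptures the ligament, and buprenorphine for pain relief, and their right knees were taken at day 7. Naïve mice received no load. The other 9 libraries came from injured knees at day 1 and from the left knees of loaded mice at days 1 and 7. They entered the filter on low counts, the scaling and the fit, where they share the estimate of the spread.

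The tissue was the cap of cartilage over the femoral condyles, cut from the bone at the tidemark. Each library was a pool of cartilage from several mice (4 per pool in the series description). The supplement gives partial cartilage loss at day 7 as the reason for pooling 4 mice. Pool size and the amount of remaining tissue may therefore differ between injured and naïve libraries. Neither can be told apart from injury here. The methods name 12 loaded mice for day 7 and 6 naïve mice, with left and right naïve knees pooled apart. With 6 mice in 6 pools of several mice, naïve libraries share mice, and which of them do is not labelled. The tests below treat the 6 as independent, so their p-values are likely too small, and they measure the spread between these libraries, part of which may be technical. In pooled tissue, fewer cells of a type and less RNA per cell cannot be told apart.

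A miRNA is a short RNA that guides the silencing complex to messenger RNAs. Most of its choice of targets rests on the seed, the run of bases near its 5′ end, so miRNAs that share a seed form a family with overlapping targets. Each miRNA is cut from a hairpin, and either arm of the hairpin (5p or 3p) can be kept as the mature miRNA, usually one far more than the other. In cartilage the best known family is miR-140, which is expressed in chondrocytes and needed for normal growth and upkeep of the tissue.

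The miRNAs that carried the results are shown first, from RefSeq (GRCm38.p6), with the seed (bases 2 to 8) in capitals. The first set holds rises at low abundance from outside chromosome 12. Both arms of Mir335, in an intron of Mest, lie at chr6:30741314-30741336 and chr6:30741354-30741375 on the plus strand. Mir34b lies at chr9:51103610-51103632 on the minus strand, opposite an intron of Btg4.
miR-335-3p: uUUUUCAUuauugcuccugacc
miR-335-5p: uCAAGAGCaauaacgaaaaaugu
miR-34b-5p: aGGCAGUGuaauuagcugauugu
miR-31-5p: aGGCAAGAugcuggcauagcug

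The second set comes from the imprinted Meg3 to Mirg region of chromosome 12 and shows how neighbours relate. The 3p arms of miR-379 and miR-411 share a seed and differ at 2 of 22 bases (U10C and U22C, with the base of miR-379-3p first and positions counted from the 5′ end), whereas their 5p arms differ in the seed itself at position 2 (G2A). Both arms of miR-434 are shown because the balance between them changed.
miR-379-3p: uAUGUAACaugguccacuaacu
miR-411-3p: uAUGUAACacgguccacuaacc
miR-379-5p: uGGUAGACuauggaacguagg
miR-411-5p: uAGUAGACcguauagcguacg
miR-134-5p: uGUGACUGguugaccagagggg
miR-434-5p: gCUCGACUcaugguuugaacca
miR-434-3p: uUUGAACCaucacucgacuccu

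The third set holds abundant miRNAs. Within let-7, let-7i-5p and let-7g-5p share the seed and differ at 2 of 22 bases (G17A and U19A, with the base of let-7i-5p first). miR-21b has 18 of the first 22 bases of miR-21a-5p and differs within the seed (C4U, with the base of miR-21a-5p first).
miR-199a-5p: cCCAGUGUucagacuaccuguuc
miR-199a-3p: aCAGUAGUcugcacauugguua
miR-21a-5p: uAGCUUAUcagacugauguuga
miR-21b: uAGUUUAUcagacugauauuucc
let-7i-5p: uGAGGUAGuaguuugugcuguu
let-7e-5p: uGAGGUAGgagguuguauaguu
let-7g-5p: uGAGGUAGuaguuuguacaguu

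The fourth set holds families that were lower in injured cartilage. miR-103-3p and miR-107-3p differ at a single base outside the seed (G22C, with the base of miR-103-3p first). miR-150-5p, miR-486a-5p and miR-34c-5p belong to these sets, and their sequences are not shown here.
miR-181a-5p: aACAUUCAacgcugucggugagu
miR-181d-5p: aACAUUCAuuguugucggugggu
miR-17-5p: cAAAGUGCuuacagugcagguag
miR-93-5p: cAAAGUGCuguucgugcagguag
miR-103-3p: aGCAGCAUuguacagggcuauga
miR-107-3p: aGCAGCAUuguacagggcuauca
miR-200c-3p: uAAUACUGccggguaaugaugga

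Total counts of the 9 libraries ran from 758388 to 3189999, and the tested miRNAs held at least 99.9% of the counts of each library. The cartilage label was checked with miR-140 and miR-455, whose 4 arms were all detected, with miR-140-5p at 3070 to 6995 CPM (normalised abundance, the count relative to the TMM-scaled size of its library) in naïve and 4344 to 6973 CPM in injured libraries. The most abundant miRNA on average was nevertheless miR-1a-3p, a miRNA of skeletal and heart muscle. It held between 8.61% and 17.6% of the counts of a naïve library, and 12.3%, 6.67% and 9.74% of those of the 3 injured libraries, which overlapped with the naïve range.

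Of the 428 miRNAs, 62 were higher and 16 lower in day 7 injured cartilage (limma-voom, Benjamini-Hochberg adjusted p under 0.05), which is 18.2% called, 14.5% higher and 3.74% lower. Group ranges were apart for 24.1% of these miRNAs. Rises were also larger than falls. They ran up to a log2 fold change of 3.60, whereas the largest fall was 1.54 on the log2 scale, and the median over all 428 miRNAs was 0.00. By location, 36 of the 48 tested miRNAs of the Meg3 to Mirg region (chr12:109540996-109749458) were higher and 0 were lower (limma-voom; 39 higher and 0 lower at an unadjusted p under 0.05, 36 and 0 by the edgeR quasi-likelihood test, 37 and 0 by DESeq2). Outside this region, 26 of 380 were higher and 16 were lower, and the median log2 fold change was -0.13. The filter on low counts needs enough counts in as few as 3 libraries, so a miRNA can pass through the injured libraries alone. Such a miRNA could hardly be called lower. The region holds some near the floor in naïve libraries, such as miR-376b-3p (mean 1.77 CPM in naïve, 14.8 in injured) and miR-380-5p (1.53 and 5.51). The counts by direction therefore describe the calls only.

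**Figure D1:**
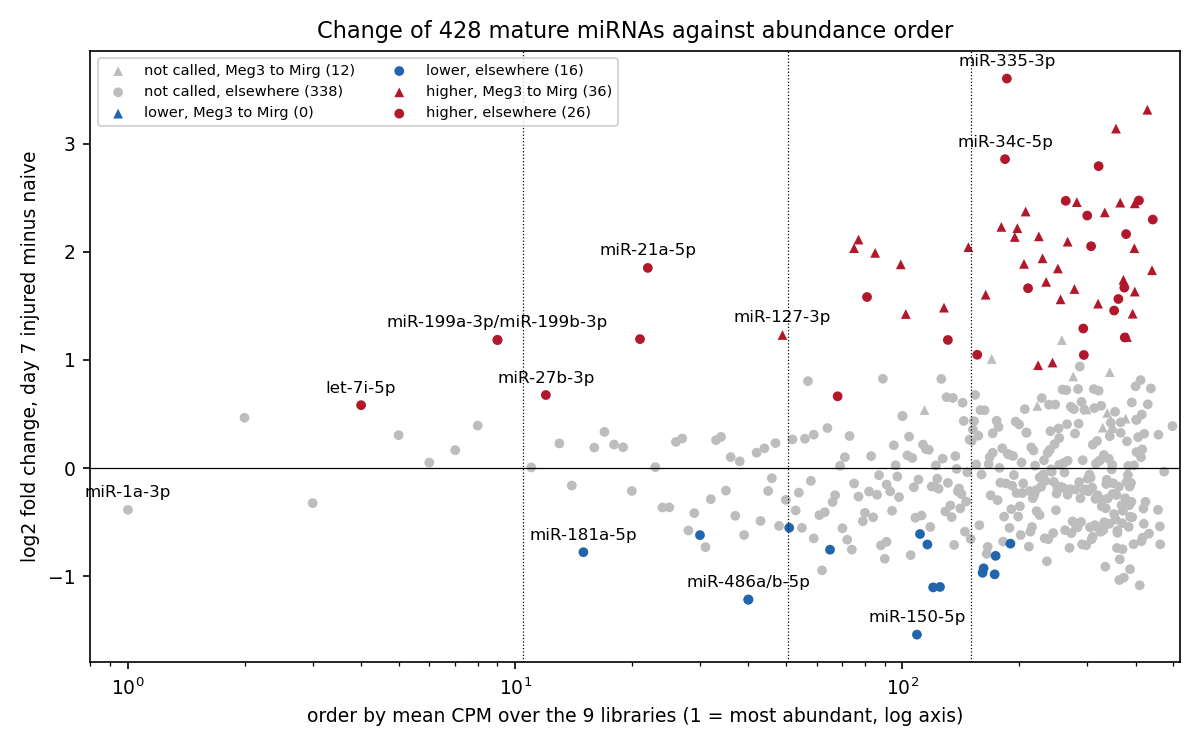
Log2 fold change (day 7 injured minus naïve, limma-voom) of each of the 428 tested miRNAs against its abundance order over the 9 libraries, on a log axis. The order is by mean rank of counts within a library, although the axis label names mean CPM. Dotted lines part orders 1 to 10, 11 to 50, 51 to 150 and the rest, and colours mark adjusted p under 0.05. Rises above 2 on the log2 scale lie past order 50, and no red point among the first 10 exceeds 1.19.

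Abundance classes follow the order of the mean rank by count over the 9 libraries. Every abundance class held called miRNAs, and differences between the classes were not tested. Among the 10 most abundant miRNAs, 3 were higher and 0 lower by limma-voom (4 and 0 at an unadjusted p under 0.05, 3 and 0 by edgeR and DESeq2, 4 and 1 with quality weights), and 2 of these 3 (miR-199a-3p and miR-199b-3p) are 1 measurement because they carried the same count in every library. Of the 40 miRNAs in orders 11 to 50, 4 were higher and 4 lower. Orders 51 to 150 gave 10 higher and 7 lower of 100. Past order 150 there were 45 higher and 5 lower of 278, and 28 of these 45 lay in the Meg3 to Mirg region. Low miRNAs could pass the filter through the injured libraries alone, so this split by direction describes the calls only. The median log2 fold change was 0.35, -0.04, -0.16 and 0.03 in the 4 classes, in the same order.

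Of the top 10, let-7i-5p and the miR-199 3p arm rose. let-7i-5p, a let-7 miRNA transcribed from an exon of D630033A02Rik, had 41552, 47661 and 50790.5 CPM as the lowest, median and highest of the naïve libraries, and 73439, 61622 and 75843 CPM in the 3 injured libraries. All injured libraries lay above all naïve ones. The log2 fold change was 0.58 ± 0.16 SE (limma-voom adjusted p = 0.0118), and the call was lost without injured replicate 1, which had the lowest depth, without injured replicate 3, with no filter on low counts and with scaling by library totals. miR-199a-3p with miR-199b-3p had 13009, 20807 and 26304 CPM in naïve and 41502, 45785 and 46785 CPM in injured libraries, again without overlap. Its rise was 2.27-fold (log2 1.19 ± 0.26 SE, limma-voom adjusted p = 0.00201), and its mean rank went from 10.5 to 7.

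The other 7 of the top 10 were not called. miR-148a-3p ran from 41454 to 251151 CPM over the naïve libraries and measured 100405, 144027 and 138782 CPM in the injured ones, a log2 fold change of 0.47 ± 0.59 SE. miR-26a-5p had no overlap between the groups, at 71014 to 87615 CPM in naïve and 63785, 61133 and 63471 CPM in injured libraries, yet its log2 fold change of -0.32 ± 0.27 SE did not pass (limma-voom adjusted p = 0.494). The endothelial miR-126a-3p had a log2 fold change of 0.30 ± 0.21 SE with a 95% interval of -0.14 to 0.75.

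Below the top 10, miR-21a-5p showed the largest rise among miRNAs of the first 50. It lies in an exon of Vmp1 and is known for its rise in wounding and fibrosis. Naïve libraries held 3099, 8175 and 9475 CPM (lowest, median, highest), and the injured libraries 19836, 25533 and 30656 CPM. No library of one group reached the other. The rise was 3.61-fold (log2 1.85 ± 0.29 SE, limma-voom adjusted p = 8.23e-05), and the mean rank moved from 28.2 to 11.7. miR-21b, whose sequence is close to that of miR-21a-5p, rose too (log2 1.66 ± 0.36 SE, limma-voom adjusted p = 0.00188) from 14.7 to 53.8 CPM in naïve libraries to 68.7, 101 and 136 CPM. Because the sequences are so alike, the pair may share reads, and the value of miR-21b is uncertain.

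miR-199a-5p, miR-214 and miR-27b-3p rose as well. miR-199a-5p, the other arm of the same hairpins as miR-199a-3p, had 6438, 8045 and 8534 CPM in naïve libraries and 14848, 16963 and 21065 CPM in injured ones, without overlap. miR-214-5p, which lies in the same host transcript as Mir199a-2 (Dnm3os), went from 397, 542 and 881 CPM to 1617, 1819 and 1650 CPM, a 3.0-fold rise (limma-voom adjusted p = 6.58e-05). miR-27b-3p went from 9433, 14354 and 18119 CPM to 20964, 22923 and 22133 CPM, and its smaller rise (log2 0.68 ± 0.20 SE, limma-voom adjusted p = 0.0196) was lost without injured replicate 2 or 3.

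miR-335, miR-34 and miR-31 rose from low abundance and lie outside chromosome 12. They are not all of the large rises there, since miR-224-5p and miR-582-3p, at log2 fold changes of 2.48 and 2.30 but mean levels of 5.07 and 3.65 CPM, rose more than miR-31-5p, and miR-31-5p, miR-224-5p and miR-582-3p were named after their values were seen. miR-335-3p, from the imprinted Mest locus, had 24, 34.6 and 52.9 CPM in naïve libraries and 306, 487 and 501 CPM in injured ones. The 3 injured libraries lay far above both the naïve libraries and the other 9, which held 6.87 to 44.2 CPM. This was the largest change of all 428 miRNAs, 12.2-fold (log2 3.60 ± 0.37 SE, limma-voom adjusted p = 5.93e-07). Its partner miR-335-5p had 8.60, 15 and 20.2 CPM in naïve libraries and 45.3, 90.1 and 113 CPM in injured ones (log2 2.47 ± 0.51 SE, limma-voom adjusted p = 0.00107), which also did not overlap.

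miR-34c-5p, a miRNA under the control of p53, had 25.2, 43.7 and 54.3 CPM in naïve libraries and 267, 280 and 361 CPM in injured ones. Its groups did not overlap, and the rise was 7.25-fold (log2 2.86 ± 0.29 SE, limma-voom adjusted p = 5.60e-07). The other 9 libraries held 35.5 to 90.7 CPM. miR-31-5p, known from wounded and stretched tissue, had only 6.09, 7.27 and 11.1 CPM in naïve libraries and 23.4, 29.0 and 40.9 CPM in injured ones, the lowest of which rests on 17 counts. It rose 4.15-fold (log2 2.05 ± 0.26 SE, limma-voom adjusted p = 6.98e-06) and also kept its ranges apart.

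Among the largest rises with a mean of at least 10 CPM were 7 miRNAs of the Meg3 to Mirg region, a maternally expressed imprinted locus with one of the densest runs of miRNAs in the genome. miR-380-3p was first, at 1.97, 3.09 and 4.42 CPM in naïve libraries and 23.4, 27.6 and 35.5 CPM in injured ones (log2 3.14 ± 0.38 SE). Its naïve values lie near the floor, and it rests on as few as 4 counts in a library. It may have passed the filter on low counts through the injured libraries alone, so the size of its rise is uncertain. miR-134-5p, which lies in an exon of Mirg, went from 43.0, 47.8 and 56.2 CPM to 199, 250 and 239 CPM (log2 2.23 ± 0.20 SE, limma-voom adjusted p = 2.00e-07). Neither overlapped between groups. miR-369-3p, miR-409-3p, miR-341-3p, miR-543-3p and miR-379-3p rose by 2.14 to 2.46 on the log2 scale. Together the tested miRNAs of this region held 0.609% ± 0.153 (SD, n = 6) of the counts in naïve and 1.62% ± 0.0876 (SD, n = 3) in injured libraries.

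**Figure D2:**
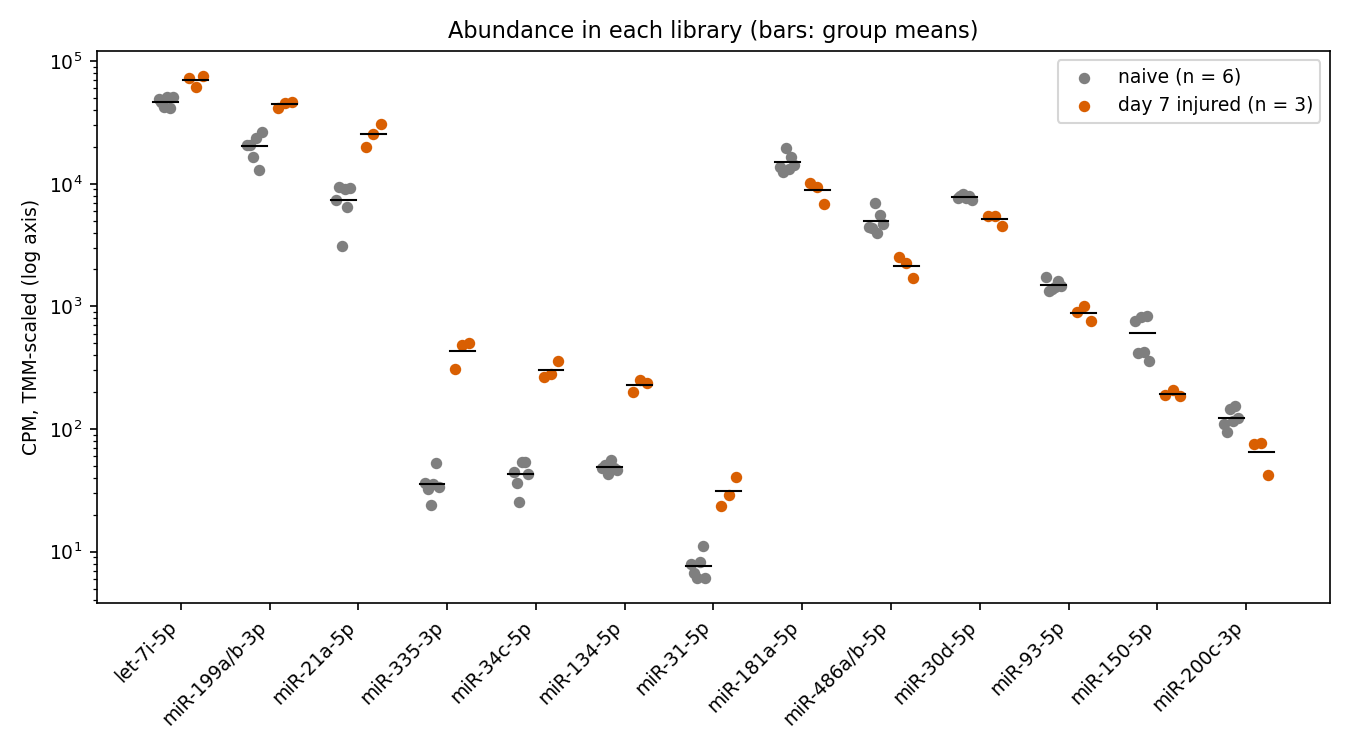
TMM-scaled CPM on a log axis of 13 miRNAs in each naïve (n = 6, grey) and day 7 injured (n = 3, orange) library, with black bars at the group means; the identical pairs miR-199a/b-3p and miR-486a/b-5p are drawn once each. The injured points sit above all naïve points for the 7 miRNAs on the left and below them for the 6 on the right. All 13 were chosen from called miRNAs, which favours this separation. Group ranges were apart for 24.1% of all tested miRNAs.

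Falls were fewer and smaller. miR-150-5p, a miRNA of mature lymphocytes, fell most. It had 359, 593 and 840 CPM in naïve libraries and 190, 208 and 186 CPM in injured ones, whose 3 values lay close together below the whole naïve range (log2 -1.54 ± 0.36 SE, limma-voom adjusted p = 0.00317). miR-486a-5p and miR-486b-5p, 1 measurement of an erythroid and muscle miRNA, went from 3937, 4557 and 6939 CPM to 2506, 2256 and 1690 CPM. This fall was 2.32-fold (limma-voom adjusted p = 0.000673), and the 3p arms of both hairpins fell with it, by 1.1 on the log2 scale. The calls of miR-150-5p and of these 5p copies were the only 3 of the 16 falls that held under every alternative that gave them a value, as did 47 of the 62 rises.

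Further falls were of less than 2-fold. miR-181a-5p, the most abundant of them, had 12488, 13969 and 19670 CPM in naïve libraries and 10148, 9442 and 6845 CPM in injured ones, and its mean rank went from 13.5 to 23. miR-30d-5p had 7393, 7821 and 8317 CPM against 5429, 5472 and 4482 CPM (log2 -0.62 ± 0.15 SE, limma-voom adjusted p = 0.00388). In both, each injured library lay below each naïve one. miR-708-5p, miR-342-3p and miR-3535 fell by 0.97, 0.93 and 0.81 on the log2 scale. Without injured replicate 3, 3 miRNAs were called lower in place of 16 and 52 higher in place of 62, so most of the falls rest on that library for their calls.

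By seed family, 365 of the tested miRNAs were grouped by their RefSeq sequence and 16 by name. The other 47 had no RefSeq sequence and could not be placed by name. They stood alone, with identical copies together, though some may share a seed with another family. The counts of each family were summed, with identical copies entered once, scaled and tested in a fit of their own. Of the 339 families 55 were higher and 10 lower, 19.2% called (16.2% higher and 2.95% lower). Most calls came from families with 1 measurement, those that stood alone included, 50 higher and 6 lower of 290. Of the 49 families with at least 2 measurements, 5 totals were higher and 4 lower, and no family had members called in both directions.

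**Figure D3:**
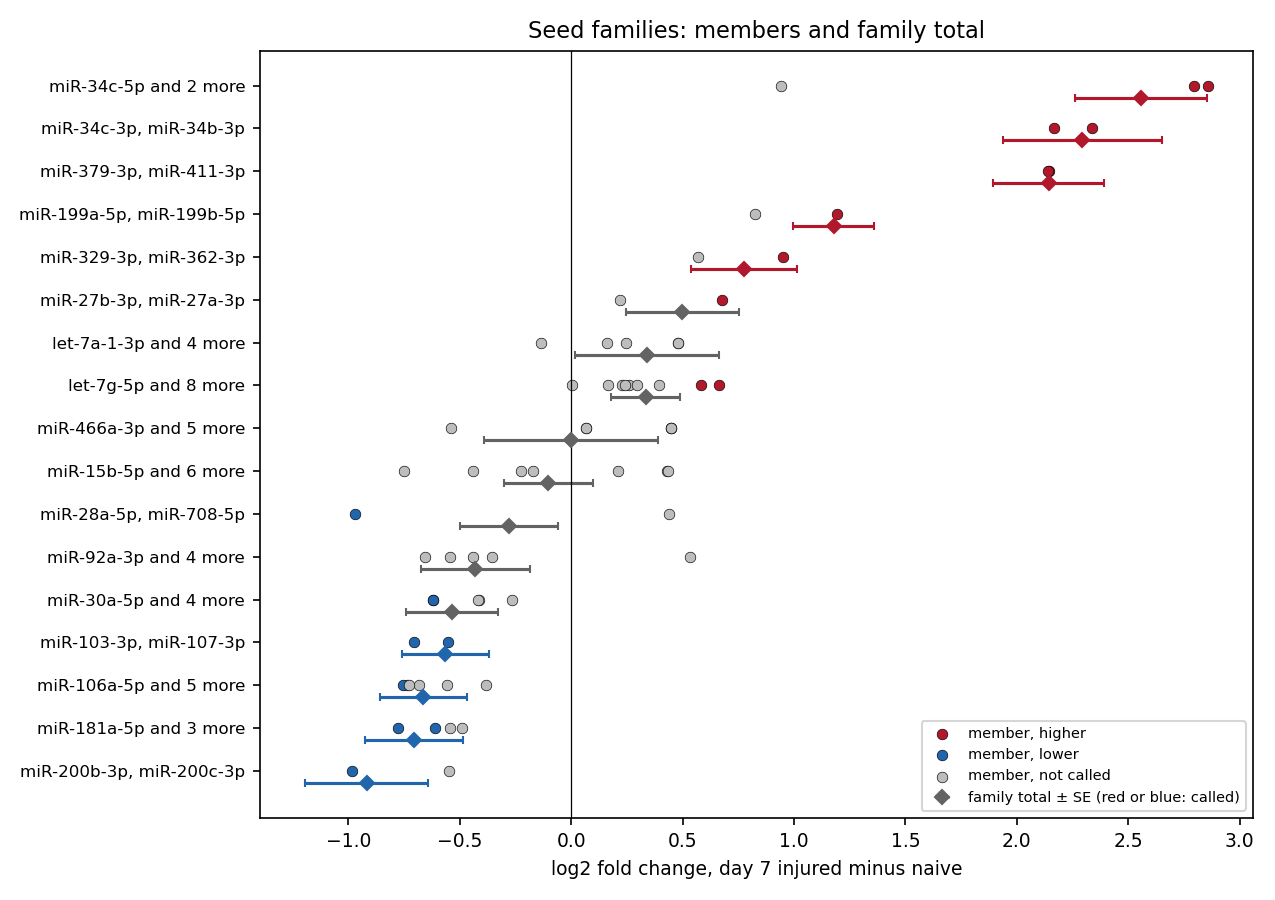
Log2 fold change (day 7 injured minus naïve) of the 17 seed families with at least 2 measurements that were called, had a called member or had at least 4 tested members; circles are members, coloured by their own call, and diamonds with bars are the family total ± SE. Totals of the miR-34, miR-379-3p, miR-199-5p and miR-329-3p seeds lie on the right and those of miR-103, miR-17, miR-181 and miR-200 seeds on the left, with let-7 and miR-15 near 0.

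The seed GGCAGUG of miR-34 had the largest rise of a total among families with at least 2 measurements. Its 3 members summed to 40.0, 70.6 and 78.5 CPM in naïve libraries and to 352, 318 and 504 CPM in injured ones, without overlap (log2 2.56 ± 0.30 SE). miR-34b-5p rose with miR-34c-5p, from 2.46, 5.97 and 12.0 CPM to 42.6, 27.6 and 46.8 CPM (log2 2.79 ± 0.39 SE, limma-voom adjusted p = 2.46e-05). miR-34a-5p, which is made from a separate gene, had 8.54, 16.7 and 21 CPM in naïve and 26.1, 27.6 and 31.6 CPM in injured libraries. These ranges did not overlap either, but its log2 fold change of 0.94 ± 0.40 SE did not pass (limma-voom adjusted p = 0.129), and its difference from the other members was not tested. The 3p arms miR-34b-3p and miR-34c-3p share the seed AUCACUA, whose total rose by 2.29 ± 0.36 SE on the log2 scale.

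The seed AUGUAAC, shared by miR-379-3p and miR-411-3p, rose in both members alike. miR-379-3p had 21.2, 25.3 and 30.3 CPM in naïve and 109, 124 and 105 CPM in injured libraries, and miR-411-3p had 28, 42.3 and 45.5 CPM and 162, 178 and 171 CPM. Each member's log2 fold change was 2.14, and so was that of the total. The seed CCAGUGU of miR-199a-5p and miR-199b-5p rose by 1.18 ± 0.18 SE in total. Here miR-199b-5p alone did not pass (log2 0.83 ± 0.57 SE, limma-voom adjusted p = 0.397), though its 3 injured values of 904, 930 and 670 CPM lay above its naïve range of 248 to 634 CPM. The fifth family total to rise was ACACACC, miR-329-3p with miR-362-3p (log2 0.78 ± 0.24 SE), which was lost without injured replicate 1 or 2 and under scaling by library totals.

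Of the 10 totals that fell, 4 were of families with at least 2 measurements, those of miR-181, miR-17, miR-103/107 and miR-200. The seed ACAUUCA of miR-181 summed to 16961, 18147 and 26429 CPM in naïve and 13770, 11645 and 10550 CPM in injured libraries, without overlap (log2 -0.71 ± 0.22 SE, limma-voom adjusted p = 0.0232). miR-181a-5p and miR-181d-5p fell, and miR-181b-5p and miR-181c-5p had log2 fold changes of -0.49 ± 0.18 and -0.55 ± 0.27 SE that did not pass. The seed AAAGUGC, shared by miR-17, miR-20, miR-93 and miR-106, which are known for promoting the cell cycle, summed to 2810, 3588 and 4235 CPM in naïve and 2233, 2328 and 2126 CPM in injured libraries. All 6 members had negative values, from -0.76 to -0.38 on the log2 scale, but miR-93-5p was the only member that passed.

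miR-103-3p and miR-107-3p, which sit in introns of the Pank genes, both fell (log2 -0.55 ± 0.18 and -0.71 ± 0.20 SE), as did their total. Their total was the weakest of the calls (limma-voom adjusted p = 0.0452). The total of miR-200b-3p and miR-200c-3p, an epithelial seed, fell by 0.92 on the log2 scale, with most of its counts from miR-200c-3p. That miRNA had 94.6, 120 and 153 CPM in naïve and 75.6, 76.5 and 42.5 CPM in injured libraries, without overlap. Each of these 4 falling totals lost its call without injured replicate 3 and when libraries were scaled by their totals alone.

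Among the other families of at least 4 tested members no total was called. The 9 let-7 members with seed GAGGUAG took the largest share of counts of any seed, and all 9 had positive log2 fold changes, from 0.01 to 0.66, except that let-7g-5p, at 0.01, turned negative under 9 of the alternatives, library totals among them. let-7i-5p and let-7e-5p were called higher; let-7e-5p had 824, 974 and 1374 CPM in naïve and 1657, 1613 and 1633 CPM in injured libraries. let-7g-5p, with 19212, 28208 and 32161 CPM and 27413, 24174 and 27300 CPM, overlapped widely. The let-7 total had a log2 fold change of 0.34 ± 0.16 SE (95% interval 0.01 to 0.66, limma-voom adjusted p = 0.154) and overlapped between groups. Reads of such near copies could be assigned to more than 1 member, so single members are less certain than the total.

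The miR-30 total (seed GUAAACA) did not overlap between groups, at 18906 to 26525 CPM in naïve and 16186, 15009 and 15650 CPM in injured libraries, but missed the threshold (log2 -0.53 ± 0.21 SE, limma-voom adjusted p = 0.0813). All 5 members were negative, and miR-30d-5p was the only one called. miR-30a-5p had the same log2 fold change of -0.62 with a larger SE of 0.37. The miR-15 and miR-16 total (AGCAGCA) had a log2 fold change of -0.10 with a 95% interval of -0.52 to 0.31. The intervals were wider for the miR-25 and miR-92 seed AUUGCAC (-0.94 to 0.08), the let-7 3p seed UAUACAA (-0.33 to 1.01) and the miR-466 seed UACACAC (-0.82 to 0.82), none of which was called. In the pair miR-28a-5p and miR-708-5p, miR-708-5p fell while the value of miR-28a-5p (log2 0.44 ± 0.21 SE) did not pass.

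By arm, calls were spread over both sides of the hairpin. Of 202 tested 5p miRNAs 28 were higher and 8 lower, and of 194 tested 3p miRNAs 32 were higher and 7 lower. The 5p arms held 50.9% ± 6.55 (SD, n = 6) of the counts in naïve and 48.8% ± 0.364 (SD, n = 3) in injured libraries, a difference within the spread (two-sided exact permutation test over the 84 splits, p = 0.643; the smallest p this design allows is 0.0238). Both arms passed the filter for 111 hairpins. In 83 of these the arms moved in the same direction, and across hairpins their log2 fold changes had a Pearson r of 0.75, as a description over arms cut from the same transcripts and counted in the same libraries.

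**Figure D4:**
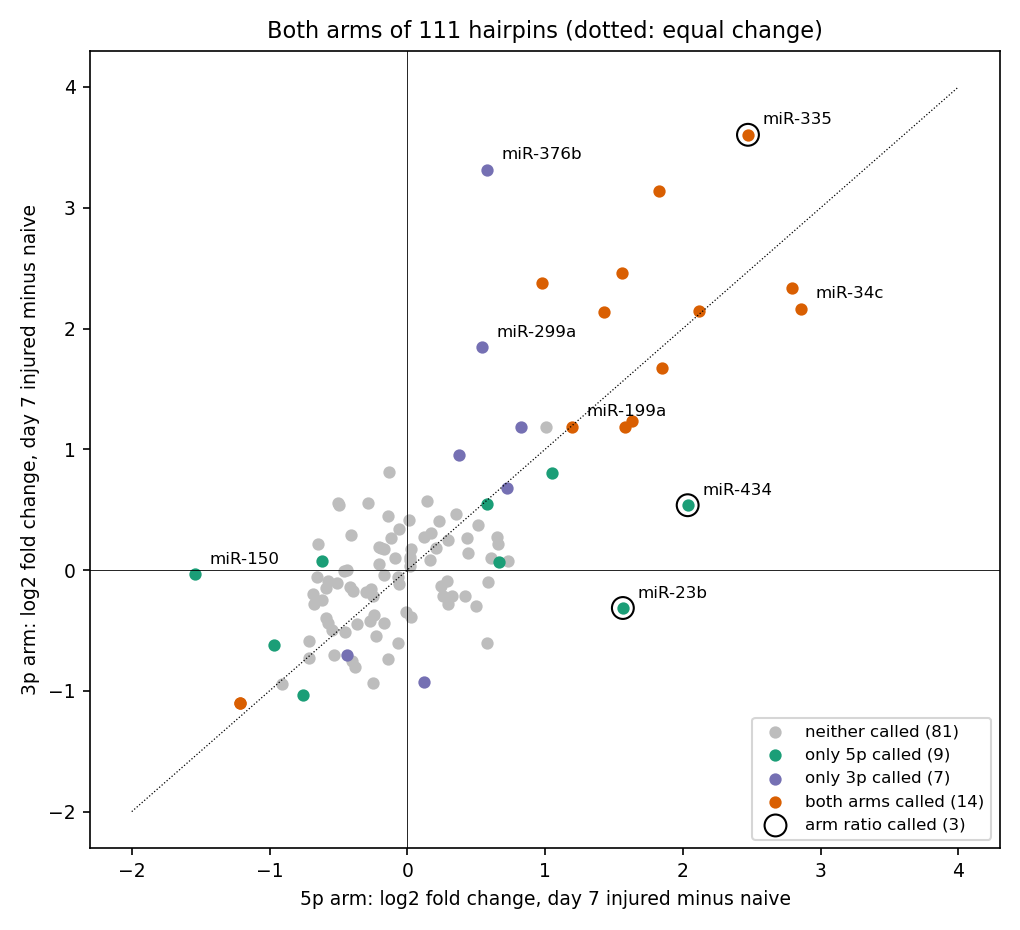
Log2 fold change (day 7 injured minus naïve) of the 3p arm against that of the 5p arm for 111 hairpins; colours show which arms were called, rings mark the 3 hairpins whose arm ratio was called, and the dotted line marks equal change. Orange points with both arms called lie along the line in both directions, while miR-23b and miR-434 lie below it and miR-335 above it.

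Both arms were called higher in 12 hairpins and both lower in 2, and none had arms called in opposite directions. The 12 were miR-335, miR-34b, miR-34c, miR-21a, miR-214, miR-199a and 6 hairpins of the Meg3 to Mirg region. The 2 lower were miR-486a and miR-486b, whose 5p arms are 1 measurement. Their 3p arms were nearly alike, with means of 397 and 386 CPM in naïve and 180 and 176 CPM in injured libraries, so they are not 2 separate cases. In miR-199a the log2 fold change was 1.19 in both arms. In 16 hairpins a single arm was called, and in 13 of them it was the more abundant arm. The arm ratio itself, log2 of 5p CPM over 3p CPM within each library, was called in 3 of the 111 hairpins, or 2.70% (limma, Benjamini-Hochberg adjusted p under 0.05), and did not overlap between groups in 10.8%. So in 14 of the 16 hairpins with a single called arm, no change in the ratio was called. The 95% interval of the ratio lay within a 2-fold shift in either direction for 31 of the 111 hairpins, and for the others it allowed a larger one.

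miR-434, a hairpin antisense to the exon of Rtl1, shifted towards its 5p arm. miR-434-5p had 415, 523 and 803 CPM in naïve and 2209, 2333 and 2363 CPM in injured libraries (log2 2.03 ± 0.31 SE, limma-voom adjusted p = 4.75e-05). miR-434-3p had 243, 320 and 385 CPM and then 477, 436 and 472 CPM (log2 0.54 ± 0.24 SE, limma-voom adjusted p = 0.152). Both arms kept the groups apart, but by different amounts. The log2 ratio of the arms was 0.11, 0.71 and 1.72 (lowest, median, highest) in naïve and 2.21, 2.42 and 2.32 in injured libraries, a shift of 1.5 ± 0.31 SE (limma adjusted p = 0.00635), which was lost without injured replicate 2.

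miR-23b shifted towards its minor arm. miR-23b-3p, the abundant arm, had 942, 1286 and 1696 CPM in naïve and 1073, 1123 and 926 CPM in injured libraries, which overlapped (log2 -0.31 ± 0.23 SE). miR-23b-5p had 2.77, 3.93 and 6.83 CPM in naïve and 15.1, 12.7 and 10.6 CPM in injured libraries (log2 1.56 ± 0.30 SE, limma-voom adjusted p = 0.000641). The ratio moved from between -8.53 and -7.26 to -6.06, -6.36 and -6.32 on the log2 scale, by 1.74 ± 0.33 SE (limma adjusted p = 0.00444). The minor arm rests on as few as 5 counts in a library. Its neighbour miR-27b, cut from the same transcript, had log2 fold changes of 0.72 in the 5p and 0.68 in the 3p arm.

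miR-335 shifted towards 3p, since its 3p arm rose further than its 5p arm. The log2 ratio was -1.65, -1.28 and -0.78 (lowest, median, highest) in naïve and -2.73, -2.42 and -2.14 in injured libraries, without overlap. The shift of -1.21 ± 0.32 SE was close to the threshold (limma adjusted p = 0.0433) and lost its call in 8 of the alternatives tried, with its direction kept. miR-299a, miR-376b, miR-409 and miR-380, all of the Meg3 to Mirg region, had shifts of -1.33, -2.04, -1.33 and -1.43 towards 3p, none of which passed (limma adjusted p = 0.0527 to 0.116). The minor arms miR-376b-3p and miR-380-5p had means of 1.77 and 1.53 CPM in naïve libraries. They held as few as 0 and 1 counts in a library, so the ratios of miR-376b and miR-380 rest on few reads. For miR-296 the more abundant arm on average went from 5p (mean log2 ratio 0.72) to 3p (-0.25), without overlap, and this shift did not pass either (limma adjusted p = 0.0664). miR-125a and miR-342 had shifts of -0.79 ± 0.28 and 1.18 ± 0.45 SE that did not pass.

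By abundance rank, the top of the profile had nearly the same members in both groups. The 10 highest miRNAs of each library held 60.2% ± 5.36 (SD, n = 6) of the counts in naïve and 61.5% ± 0.251 (SD, n = 3) in injured libraries (exact permutation test, two-sided, p = 0.667). The same 8 miRNAs were in the top 10 of all 9 libraries: miR-1a-3p, miR-148a-3p, miR-26a-5p, miR-126a-3p, miR-99a-5p, let-7i-5p, let-7f-5p and let-7c-5p. let-7g-5p was in the top 10 of every naïve library, and miR-199a-3p with miR-199b-3p in that of every injured library. By mean rank, 46 of the first 50 miRNAs were shared. miR-127-3p, miR-379-5p, miR-434-5p and miR-152-3p were in the first 50 of injured cartilage only, and miR-103-3p, miR-206-3p, miR-23a-3p and miR-486b-5p in that of naïve cartilage only, a membership that turns on small steps in rank.

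Called miRNAs changed the make-up of the counts. Those called higher summed to 13% ± 0.975 (SD, n = 6) of the counts in naïve and 23.7% ± 1.37 (SD, n = 3) in injured libraries, and those called lower to 4.31% ± 1.33 and 2.14% ± 0.365, which describes the calls and is no test of them. Among miRNAs that reached a mean rank of 150 in either group, miR-335-3p climbed most, from a mean rank of 230 to 105. miR-34c-5p climbed from 216 to 123, and miR-411-3p, miR-134-5p and miR-300-3p climbed by 72.5, 72 and 65 places. miR-150-5p dropped from 93.5 to 142, and miR-708-5p, miR-486b-3p, miR-486a-3p and miR-107-3p dropped by 40, 37.8, 37.7 and 24.5 places. In all 10 the ranks of the groups did not overlap, but the 10 were chosen for being called and for large changes in rank. Their separation is therefore no further result.

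**Figure D5:**
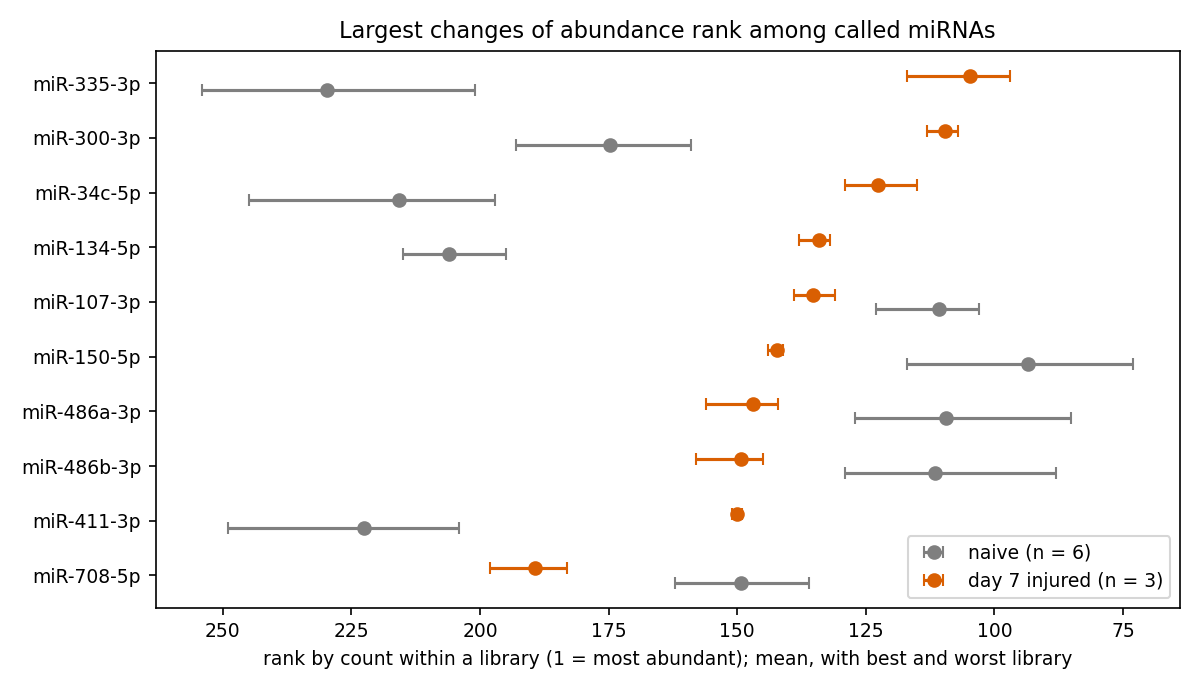
Rank by count within a library (1 is the most abundant, to the right) of the 5 called miRNAs that climbed and the 5 that dropped most, as group means with bars from the best to the worst library. miR-335-3p went from a mean of 230 in naïve to 105 in injured libraries and miR-150-5p from 93.5 to 142. No bars of one miRNA overlap, which the choice of these miRNAs by change in rank favours.

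Lists of miRNAs known from other cell types and responses were set beside these results, where 14.5% of all tested miRNAs were called higher and 3.74% lower. Of 7 tested erythroid miRNAs 4 were lower, all of them arms of miR-486a and miR-486b, whose 5p arms are 1 measurement. The list summed to 6479 to 11473 CPM in naïve and 3201 to 4440 CPM in injured libraries. miR-451a, the defining erythroid miRNA, had 684 to 2010 CPM in naïve and 1232, 1269 and 780 CPM in injured libraries, which overlapped (log2 -0.25 ± 0.37 SE). Of 8 leukocyte miRNAs miR-150-5p was lower, and miR-142a-3p, found in all blood cells, had a log2 fold change of 0.18 ± 0.40 SE. miR-223-3p of myeloid cells had -0.75 ± 0.28 SE (limma-voom adjusted p = 0.0744).

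None of the 8 tested skeletal muscle miRNAs was called by limma-voom, edgeR or DESeq2 (2 at an unadjusted p under 0.05, 3 with quality weights), and all 8 had negative log2 fold changes, with a median of -0.46. The muscle list summed to 100651 to 207781 CPM in naïve and 78860 to 145134 CPM in injured libraries, which overlapped, and 2 of its 14 miRNAs in the table were at 0 in all 9 libraries. miR-133a-3p had the largest of these values (log2 -0.95 ± 0.42 SE). The part of muscle, blood or epithelial RNA in the falls of miR-486, miR-150-5p and miR-200c-3p was not tested. The epithelial list summed to 205 to 346 CPM in naïve and 117 to 166 CPM in injured libraries, with 1 of 4 lower.

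Among 15 tested miRNAs of a list on stretch and wounding, 8 were higher: both arms of miR-21a, miR-199a and miR-214, with miR-27b-3p and miR-31-5p. The median log2 fold change of this list was 0.76, against 0.00 over all 428 miRNAs. This list was drawn up with results of these data known, so its count describes them only. Of 19 miRNAs of miR-17/92 and its paralogues, miR-93-5p was lower and 16 had negative values, and their sum went from 7915 to 12426 CPM in naïve to 5363 to 6812 CPM in injured libraries.

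None was called among 4 cartilage, 6 vascular, 3 neural and 5 miR-29 miRNAs, 9 of the X-linked miR-322 cluster, 11 tied to inflammation and 1 to hypoxia by limma-voom or edgeR. Of these 39 miRNAs, 4 were higher and 3 lower at an unadjusted p under 0.05, DESeq2 called 0 higher and 1 lower, and the fit with quality weights called 1 higher and 5 lower. The miR-29 family, known for restraining collagen genes, had a median log2 fold change of -0.20, and its most abundant member miR-29a-3p had -0.21 ± 0.24 SE. Its list summed to 2836 to 4381 CPM in naïve and 2407 to 2791 CPM in injured libraries, without overlap. This sum, like those of the other lists, is relative to library totals without TMM scaling. Of the cartilage miRNAs, miR-140-3p and miR-140-5p had log2 fold changes of -0.09 ± 0.19 and 0.29 ± 0.33 SE, and miR-455-5p had 0.60 ± 0.26 SE (limma-voom adjusted p = 0.138). The intervals of miR-140 ran from -0.49 to 0.31 and from -0.40 to 0.97. Of 23 tested miRNAs from the Sfmbt2 intron, 1 was higher, miR-669l-5p.

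Sequence make-up was also compared. Where a RefSeq sequence was found, the median GC content was 47.6% for miRNAs called higher and 47.8% for all tested, and 45.8% of those called higher began with U against 41.4% of all. Over the 365 miRNAs with a sequence, GC content and log2 fold change had a Spearman rho of -0.18, a description across miRNAs of the same libraries. Calls among low miRNAs rest on few reads, since 3 counts, a limit that covers counting error only, stand for 0.940 to 3.96 CPM in these libraries.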

How the data were processed

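The deposited table holds raw counts per mature miRNA and library, without normalisation. Per the study's methods the authors ran the nf-core small RNA pipeline, with Trim Galore 0.6.6 for adapters, bowtie 1.3.0 against miRBase mature sequences and SAMtools 1.12 for counting. How reads matching several miRNAs were counted is not given in the sources used here; 15 tested miRNAs fell into 7 sets with identical counts throughout. Rows were matched to samples by library number, although the prefix before it differs between table and titles, and no second identifier was at hand. Groups came from the treatment labels.

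Counts were analysed in R 4.3.3. filterByExpr of edgeR 4.0.16 (minimum count 10, minimum total 15) kept 428 miRNAs. Libraries were scaled by TMM, and limma 3.58.1 (voom, lmFit, eBayes) took all 18 libraries, each group with a mean of its own. The contrast was day 7 injured minus naïve, with Benjamini-Hochberg adjustment and a threshold of 0.05. The study also modelled mouse pools, which the labels do not give. Seed families summed miRNAs found by sequence or name to share bases 2 to 8, and were scaled and fitted likewise. Arm ratios were log2 CPM differences (prior count 2) of hairpins with both arms tested, fitted with limma. Shares were compared by exact permutation (scipy 1.17.1). Intervals are 95% intervals of the fits. Positions came from RefSeq and GENCODE annotation of GRCm38; miR-376c-3p and miR-485-5p were placed in the Meg3 to Mirg region by GENCODE.

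Named miRNAs followed a rule: the 20 highest, the 12 largest rises and falls with at least 10 CPM on average, 10 families by p and those with at least 4 members, 10 hairpins by p, list members, and the 5 largest climbs and drops in rank. Other members of called families, arms of named hairpins, miR-31-5p and further called miRNAs were chosen after their values were seen. Members and lists were chosen with earlier results of these data known. On simulated counts, 187 of 197 miRNAs changed 4-fold were recovered, 9 other calls were unchanged miRNAs, and 1 call was made in data without change. The simulated libraries were independent, unlike naïve libraries that share mice, so these numbers do not give the rate of false calls here. Changes smaller than 4-fold, which include all the falls, were not simulated. Alternatives were other scalings (DESeq2 1.42.0 size factors, library totals), other filters, edgeR's quasi-likelihood test, DESeq2, quality weights, another prior count, the 9 libraries alone, identical miRNAs entered once, and leaving out each library.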

Additional observations from a re-analysis of the deposited data

Results flagged for a closer look

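Among 65 sets of 6 naïve values that were looked at, 5 held a library far from the other 5 by Dixon's test at its 95% critical value, and chance flags about 1 in 20 sets. miR-24-3p was 13550 CPM in naïve replicate 1, where the next highest library held 10990 CPM. miR-341-3p was 10.4 CPM in naïve replicate 3, against 5.98 CPM in the next. Naïve replicate 5 was high for miR-34b-3p (12.8 CPM, next 8.37) and for miR-409-3p (61.5 CPM, next 32.6). The summed miR-25 and miR-92 seed AUUGCAC was 6769 CPM in naïve replicate 6, against 5458 CPM in the next. The injured libraries stayed above these high naïve values for miR-341-3p, miR-34b-3p and miR-409-3p. These miRNAs were named for being among the largest called rises, so this is no further result. Groups of 3 were not examined in this way.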

How the results depend on the processing

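No paired analysis was possible because the labels give no replicate numbers shared between the groups. Lower miRNAs numbered 8 with every miRNA of at least 1 count, 55 with quality weights and 26 with the 9 libraries alone, against 16 as reported, and 3 to 16 when single libraries were left out (3 without injured replicate 3, 9 without naïve replicate 5, 10 without injured replicate 1). Higher miRNAs numbered 35 of 286 tested with at least 10 counts in every library, a filter that removes low miRNAs, and 51 to 63 without single libraries, against 62. Lower family totals numbered 23 with the 9 libraries alone and 4 to 12 without single libraries (4 without injured replicate 3, 6 without injured replicate 2), against 10. Arm ratios towards 3p numbered 0 with a prior count of 0.5, 4 with the 9 libraries alone and 0 to 3 without single libraries, against 1; those towards 5p numbered 1 with at least 10 counts of both arms in every library, where miR-23b drops out, and 1 to 2 without single libraries, against 2. Apart from the filter and miR-23b, the cause was not tested. Scaling by library totals moved the median log2 fold change of the tested miRNAs to -0.13 and gave 54 higher and 11 lower.

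Some values near 0 changed sign. let-7g-5p was -0.13 with library totals, -0.034 with every miRNA of at least 1 count, -0.011 with edgeR's quasi-likelihood test, -0.00682 with DESeq2 and -0.14 with quality weights, and -0.056 to 0.10 without single libraries. miR-99a-5p was -0.083 with library totals and -0.036 to 0.15 without single libraries. miR-142a-3p was -0.015 with quality weights and -0.13 to 0.32 without single libraries. Without single libraries miR-140-3p ran from -0.20 to 0.023, miR-1b-5p from -0.34 to 0.10, miR-27a-3p from -0.00788 to 0.40 and the UACACAC total from -0.23 to 0.13. Of 2566 values of single miRNAs, families and ratios under the alternatives, 2353 kept direction and side of the threshold, 150 lost a call and 40 gained one. Depth limits low miRNAs, as 3 counts stand for up to 3.96 CPM in the shallowest injured library.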
